A study of Arabidopsis thaliana with 12 samples.

Results

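AT4G17070 encodes a peptidyl-prolyl isomerase family protein and AT1G35340 a protein related to the Lon proteases. They are 2 of the 691 Arabidopsis thaliana genes that have a probe of their own on this array. Each was found through a probe whose annotation names that gene alone. Each has 1 such probe, and 0 probes name either gene among several, so choosing the brightest probe left nothing out. Both genes were chosen by the size of their log2 fold, prors1 over WT, in these same data. Their levels and folds are therefore a description, and no p-value is given for either.

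Total RNA was measured in 6 columns titled prors1 and 6 titled WT. The prors1 mutant is described as lacking prolyl tRNA synthetase, the enzyme that joins proline to its transfer RNA. The WT plants are of ecotype Columbia 0, and all plants had spent the night before in darkness. The source label of all 12 samples reads WT, so group membership comes from the titles alone, and no tissue, age or allele is stated in the labels. PRORS1 is named on 0 probes, so the titles could not be checked against the mutated gene. Columns 1 and 2 of a group resembled each other as readings of 1 array do, as did columns 3 and 4 and columns 5 and 6. The labels do not state this pairing, so the arrays are inferred from the likeness of the columns. Each such pair was averaged into 1 array, so that n = 3 arrays in each group. Whether the arrays carry RNA of separate plants is not stated, so errors describe a spread between arrays that may be technical.

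Peptidyl-prolyl isomerases speed the turning of the peptide bond before proline, a slow step in protein folding. The classic families are the cyclophilins, the FK506-binding proteins and the parvulins, and plant chloroplasts hold many cyclophilins and FK506-binding proteins. Lon proteases are ATP-driven enzymes that degrade damaged or surplus proteins, in plants chiefly inside mitochondria, chloroplasts and peroxisomes. Folding helpers and proteases are part of the protein quality control of these organelles. Where the proteins of AT4G17070 and AT1G35340 act was not tested.

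The deposited intensities lie on a linear scale from 0 to 100 whose unit is unknown. The median of the values above 0 ran from 0.407 to 0.520 in prors1 columns and from 0.224 to 0.289 in WT columns. Between 412 and 474 of the 3439 probes were listed at 0 per prors1 column, and between 423 and 519 per WT column. Of 8 markers of green tissue 3 had a probe of their own, and their summed intensity ran from 27.3 to 47.7 in prors1 columns and from 15.0 to 17.0 in WT columns. These are sums of deposited values, not normalized, so no difference in green tissue between the groups is read from them. None of the root and flower markers listed had one (0 of 3 each). With 3 arrays a group, the number of arrays sets the precision.

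AT4G17070, the isomerase family gene, gave a bright signal in every column. Its intensity was 6.37, 28.8, 45.4, 47.4, 9.59 and 13.0 in prors1 columns 1 to 6, against 1.43, 5.72, 4.73, 6.66, 1.95 and 4.30 in WT columns 1 to 6. As deposited the groups overlapped, because the lowest prors1 column (6.37) lay under the highest WT column (6.66). In both groups column 1 was the lowest and column 4 the highest. Averaged over arrays, its intensity was 25.1 ± 18.7 in prors1 and 4.13 ± 1.37 in WT (SD, n = 3 arrays each). Prors1 array 2 stood well above the other prors1 arrays, at 46.4 against 17.6 and 11.3.

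AT1G35340, the Lon-related gene, gave a dim signal. Its intensity was 0.367, 0.289, 0.281, 0.157, 0.204 and 0.202 in prors1 columns 1 to 6, against 0.0436, 0.00217, 0.108, 0.0179, 0.0223 and 0 in WT columns 1 to 6. As deposited the groups did not overlap, since the lowest prors1 column (0.157) lay above the highest WT column (0.108). Such a gap between the groups was found for 39.6% of all tested probes, and the prors1 columns were brighter in general. Averaged over arrays, its intensity was 0.25 ± 0.068 in prors1 and 0.0323 ± 0.027 in WT (SD, n = 3 arrays each). Even in prors1 it stayed below the median of the probes above 0, at 0.302 to 0.745 times the median of its column, and in WT it reached at most 0.382 times the median.

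**Figure D1:**
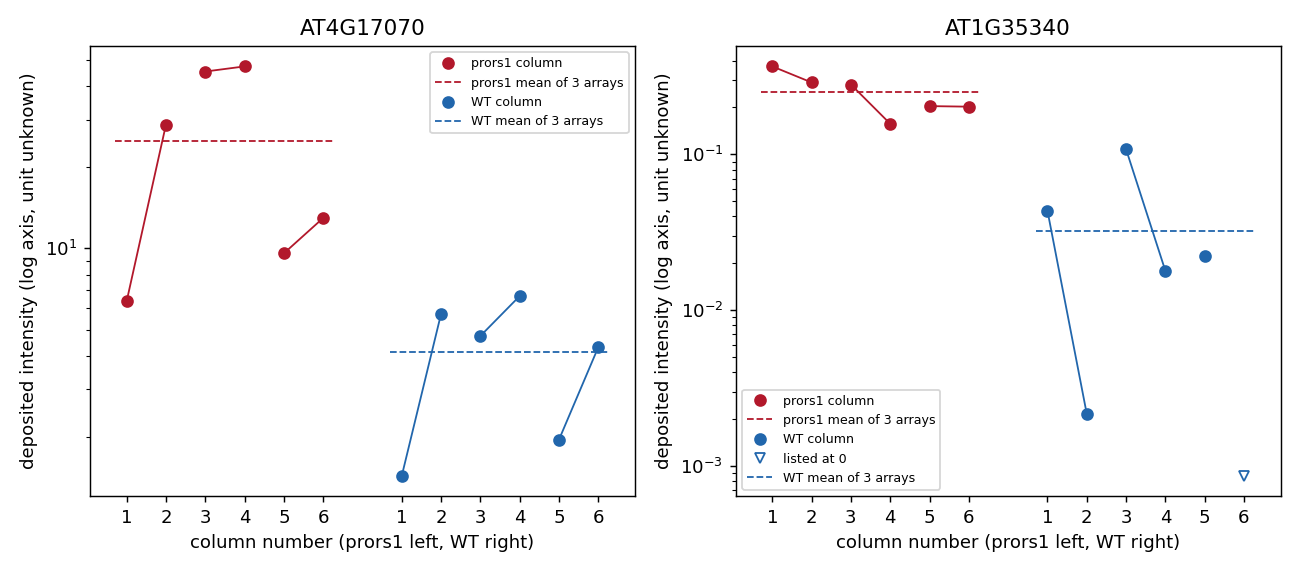
Deposited intensity (log axis, unit unknown) of AT4G17070 and AT1G35340 in each of 6 prors1 columns and 6 WT columns. Lines join the 2 columns of an array, dashed lines are means of 3 arrays, and the open triangle is the WT column in which AT1G35340 is listed at 0. AT4G17070 lies between 6.37 and 47.4 in prors1 and between 1.43 and 6.66 in WT, and AT1G35340 between 0.157 and 0.367 in prors1 and between 0 and 0.108 in WT.

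The position of a probe within its own column does not depend on how the columns are scaled. AT4G17070 lay above 98.9% to 99.8% of the 3439 probes in prors1 columns and above 94.2% to 98.6% in WT columns. By position its groups did not overlap, as for 13.2% of tested probes. AT1G35340 lay above 22.4% to 42.3% of the probes in prors1 columns. In the WT columns where it was above 0, it lay above 15.2% to 28.8%. In WT column 6 it was among the 423 probes listed at 0, which share a middle rank of 6.15% and lie above no probe. By position its groups overlapped, since prors1 column 4 (22.4%) lay under WT column 3 (28.8%). Whether the groups overlapped thus depended on the measure for both genes. For AT4G17070 it turned on single columns that lay close, at 6.37 against 6.66 by intensity and 98.9% against 98.6% by position. Both genes were chosen from these data, so nothing is read from these gaps.

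**Figure D2:**
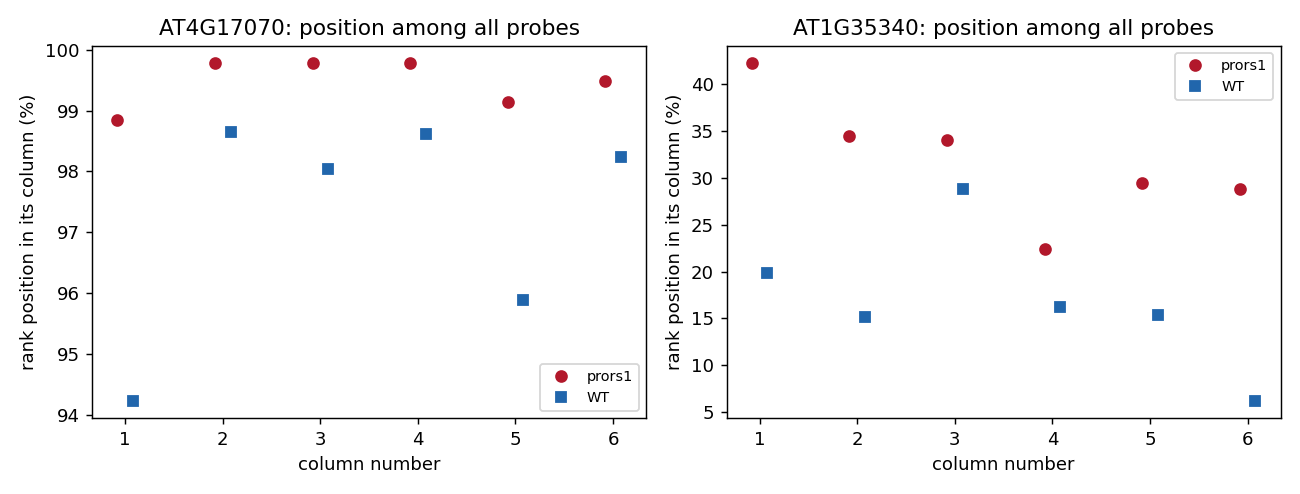
Rank position of each gene's probe among the 3439 probes of its column, in percent, by column number. Circles are prors1 and squares are WT, and probes listed at 0 in a column share a middle rank. AT4G17070 is between 98.9% and 99.8% in prors1 and between 94.2% and 98.6% in WT. AT1G35340 spans 22.4% to 42.3% in prors1 and 6.15% to 28.8% in WT. The 6.15% is the shared rank in WT column 6, where AT1G35340 is listed at 0.

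After quantile normalization, which gives all columns the same distribution of values, the normalized log2 level of AT4G17070 was 4.18, 5.32 and 3.79 on prors1 arrays 1 to 3, against 1.70, 2.40 and 1.79 on WT arrays 1 to 3. The log2 fold was 2.47 ± 0.41 (moderated SE from limma, 3 arrays per group), a 5.54-fold higher level in prors1. The normalized log2 level of AT1G35340 was -2.23, -2.83 and -2.63 on prors1 arrays 1 to 3, against -5.87, -4.08 and -4.55 on WT arrays 1 to 3. Its log2 fold was 2.27 ± 0.44, a 4.83-fold higher level in prors1. WT column 6, listed at 0, is left out of that fold, so WT array 3 rests on column 5 alone. On this scale the 3 prors1 arrays lay above the 3 WT arrays for both genes. The share of all tested probes for which this holds was not counted. Both genes were chosen by this fold, so nothing is read from the separation. Ordered by size, the folds were the 8th and the 12th largest of the 581 genes tested. Over all 2908 probes tested, 26.3% passed the test (limma adjusted p under 0.05), 12.8% as higher in prors1 and 13.5% as lower. Of the 581 genes 14.5% were higher and 12.4% lower. Because both genes were taken from this comparison, nothing is read from that share for them.

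The spread lay in different groups for the 2 genes. The normalized log2 level of AT4G17070 had an SD of 0.79 over prors1 arrays and 0.38 over WT arrays. That of AT1G35340 had an SD of 0.30 over prors1 arrays and 0.93 over WT arrays.

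The 2 columns of an array disagreed more than for most probes on some arrays, for both genes. For AT4G17070 the higher column read 4.53 times the lower on prors1 array 1 and 4.0 times on WT array 1. On the normalized log2 scale these gaps were larger than those of 99.3% and 98.0% of the tested probes on the same arrays. On prors1 array 2 its columns agreed closely, at 45.4 and 47.4. Its second column was the higher one on each of the 6 arrays. For AT1G35340 the columns of WT array 1 differed 20.1-fold and those of WT array 2 by 6.02-fold, gaps larger than those of 99.8% and 98.8% of the probes. In prors1 its columns differed by at most 1.79-fold. The first column of AT1G35340 was the higher one on all 6 arrays, counting WT array 3, whose second column was 0. The fold of AT1G35340 therefore leaned on single WT readings: it was 1.55 on the log2 scale without WT column 2, the reading of 0.00217, and 2.95 without WT column 1.

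The fold of AT1G35340 depended on how the brighter prors1 columns were brought to a common scale with the WT columns, while that of AT4G17070 kept its direction under each scaling tried. As deposited, the median log2 fold over the tested probes was 0.77, and the median difference in intensity, prors1 minus WT, was 0.166. The difference was 0.218 for AT1G35340 and 21.0 for AT4G17070. When a constant was added to each column so that all columns shared 1 median, 0 to 0.112 for prors1 columns and 0.231 to 0.296 for WT columns, the log2 fold of AT1G35340 was -0.07 ± 0.22 (SE). Its intensities with the constant ran from 0.157 to 0.394 in prors1 and from 0.249 to 0.345 in the 5 WT columns above 0, so the groups overlapped. The log2 fold of AT4G17070 with the same constants was 2.30 ± 0.48. With lower quartiles aligned in place of medians, an alternative chosen after the data were seen, the log2 folds were 0.41 ± 0.22 for AT1G35340 and 2.34 ± 0.47 for AT4G17070.

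A single constant did not level all probes either. The tested probes were split into 8 classes by mean intensity, and AT1G35340 fell in the dimmest class and AT4G17070 in the brightest, each of 364 probes. In the dimmest class the median log2 fold was 0.70 as deposited, -0.50 after quantile normalization and -1.0 with the constant that aligns medians. As deposited the log2 fold of AT1G35340 was 3.50, the 5th largest of its class, and with the constant its -0.07 was the 11th largest. In the brightest class the median log2 fold was 0.02 as deposited, -0.19 after quantile normalization and -0.18 with the constant. As deposited the log2 fold of AT4G17070 was 2.41, the 20th largest of its class. Both genes were chosen by their fold in these data, so nothing is read from these ranks. Median scaling, which moves every probe of a column alike, lowered the log2 fold of AT4G17070 to 1.51 ± 0.48 and gave 2.59 ± 0.47 for AT1G35340. A pseudocount of 0.0595 in place of leaving out values of 0 gave 2.44 ± 0.37 for AT4G17070 and 1.07 ± 0.27 for AT1G35340.

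**Figure D3:**
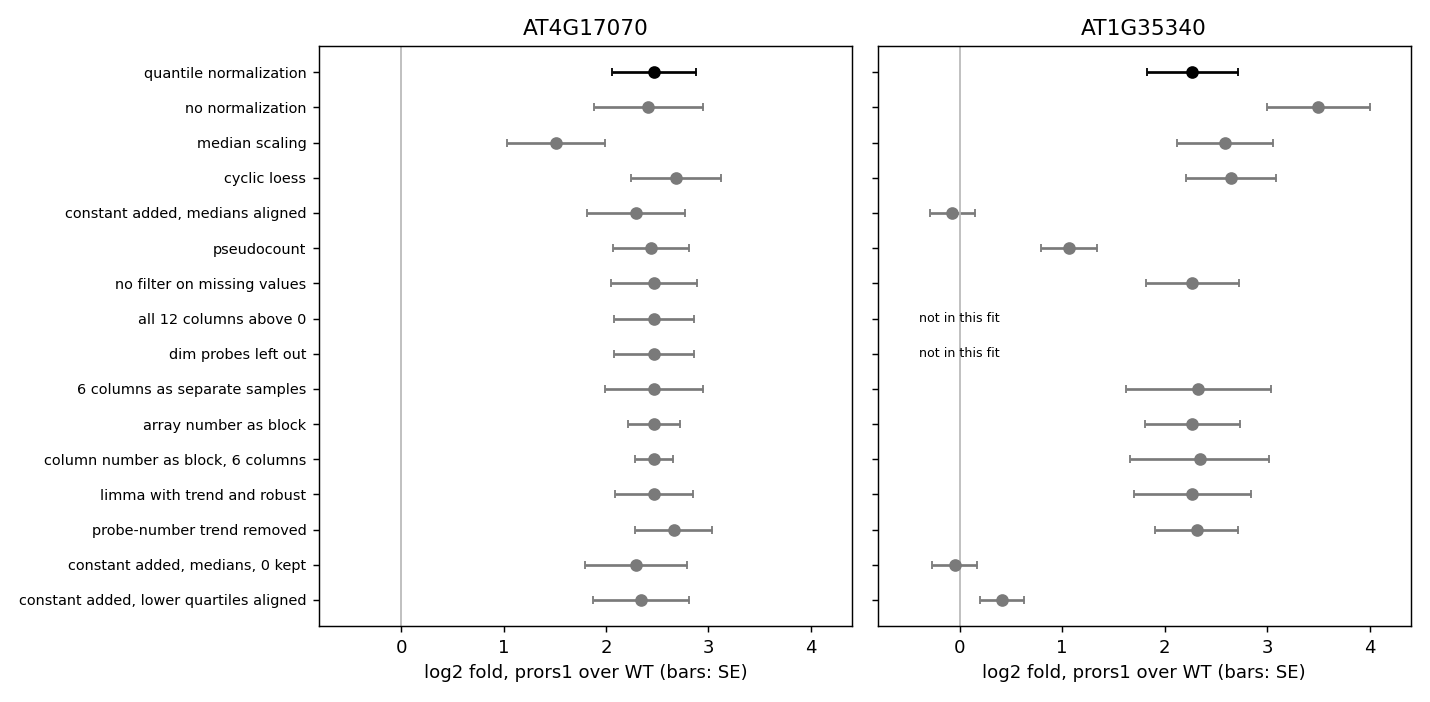
Log2 fold, prors1 over WT, of AT4G17070 and AT1G35340 under quantile normalization (black) and 15 alternatives (grey), with moderated SE as bars. AT4G17070 stays between 1.51 and 2.69, whereas AT1G35340 runs from -0.07 with a constant that aligns column medians to 3.50 without normalization, and is absent from the fits that leave out dim probes or need all 12 columns above 0.

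Other genes for isomerases, proteases and chaperones were looked up to see how the wider machinery of folding and degradation read on this array. The 3 lists held 355 genes, of which 9 had a probe of their own and 7 could be tested. None of the 7 was higher by the test (0), 1 was lower and 6 did not pass. Of all tested probes 12.8% were higher and 13.5% lower, so a list this short holds too few genes to set beside that share. The median log2 fold of the 7 was -0.02, against -0.06 over all probes.

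Of 52 isomerase genes, 4 had a probe of their own and 3 were tested, and none passed the test after quantile normalization (0). The cyclophilin-type gene AT1G74070 read 0.672 ± 0.218 in prors1 and 0.475 ± 0.061 in WT (SD, n = 3 arrays each), with a log2 fold of -0.24 ± 0.30 (SE, limma adjusted p = 0.592). AT5G35100, also cyclophilin-type, read 0.691 ± 0.205 in prors1 and 0.446 ± 0.106 in WT, with a log2 fold of -0.09 ± 0.29 (limma adjusted p = 0.847). Both signs turned as deposited, to 0.47 and 0.62. AT5G13410, of the FK506-binding type, read 0.258 ± 0.050 in prors1 and 0.108 ± 0.025 in WT. Its log2 fold was 0.24 ± 0.25 (limma adjusted p = 0.523), but it was called higher as deposited (log2 fold 1.31, limma adjusted p = 0.00800), and its fold was -0.29 with the constant that aligns medians. AT5G55220, a trigger factor type gene, was listed at 0 in all 12 columns.

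Of 216 protease genes, 2 had a probe of their own. TPP2 (AT4G20850), tripeptidyl peptidase II, which trims peptides in the cytosol, read 0.107 ± 0.033 in prors1 and 0.0253 ± 0.028 in WT (SD, n = 3 arrays each). Like AT1G35340 it was dim, and it was listed at 0 in 2 WT columns. Its log2 fold was 0.51 ± 0.54 (SE, limma adjusted p = 0.517) after quantile normalization, and the fold was 0.025 without WT array 2 and 0.98 without WT array 3. It was called higher as deposited (1.92, limma adjusted p = 0.00942) and lower with the constant that aligns medians (-1.06, limma adjusted p = 0.0370). SPPA (AT1G73990), a signal peptide peptidase, was listed at 0 in all 12 columns. None of the Lon protease genes proper had a probe of its own.

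Of 87 chaperone genes, 3 were tested. CCS (AT1G12520), which delivers copper to superoxide dismutase and is a chaperone of metal rather than of folding, was lower in prors1 by the test, with a log2 fold of -0.77 ± 0.24 (SE, limma adjusted p = 0.0495). Its intensities were 0.272 ± 0.033 in prors1 and 0.236 ± 0.045 in WT (SD, n = 3 arrays each), so the fall is relative to the other probes and turned to 0.22 as deposited. The call ended when any 1 array was left out (limma adjusted p = 0.0560 to 0.124). The plastid chaperonin gene Cpn60beta4 (AT1G26230) read 0.316 ± 0.044 in prors1 and 0.0759 ± 0.044 in WT. Its log2 fold of 1.09 ± 0.36 missed the threshold (limma adjusted p = 0.0570). It passed with the array number as a block (limma adjusted p = 0.0317), as deposited (2.18), under median scaling (1.28) and under several other settings, while the fold was 0.06 with the constant that aligns medians. Cpn60beta3 (AT5G56500) had a log2 fold of -0.02 ± 0.26 (limma adjusted p = 0.953) after quantile normalization and was called higher as deposited (0.87, limma adjusted p = 0.0306).

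**Figure D4:**
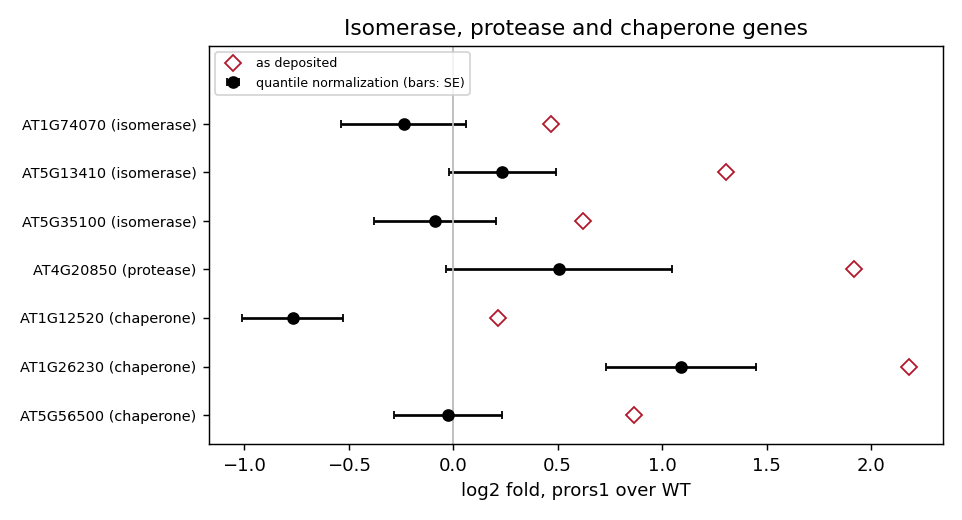
Log2 fold, prors1 over WT, of the 7 tested isomerase, protease and chaperone genes after quantile normalization (circles, SE as bars) and as deposited (open diamonds). Quantile-normalized folds run from -0.77 for AT1G12520 to 1.09 for AT1G26230, and each as-deposited fold lies to the right of its circle.

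The genes most like each of the pair were found by the root mean square (RMS) difference between normalized log2 values over the 6 arrays, each gene centred on its own mean. For AT4G17070, 544 genes measured in all 12 columns were compared, and their median RMS difference was 1.40. The nearest was AT2G48090, at 0.46, followed by AGL54 (AT5G27090), a MADS-box gene, at 0.53, AT3G02690 at 0.53, AT1G44830, an ERF family transcription factor gene, at 0.59 and AT2G47390 at 0.60. These 5 genes were dim in WT, at mean intensities of 0.0535 to 0.119, against 4.13 for AT4G17070. For AT1G35340, 545 genes were compared, with a median of 1.33. AT3G02690 was nearest, at 0.41, followed by AT1G44830 at 0.56, AT1G79220 at 0.57, AT1G24360 at 0.58 and AT5G63490 at 0.58. AT3G02690 and AT1G44830 were thus among the nearest to both. AT4G17070 and AT1G35340 differed from each other by 0.70. For each of these genes the 3 prors1 arrays lay above the 3 WT arrays, which by itself brings profiles closer. With the constant that aligns medians, 0 of the 5 nearest genes stayed among the nearest 5 for either gene.

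**Figure D5:**
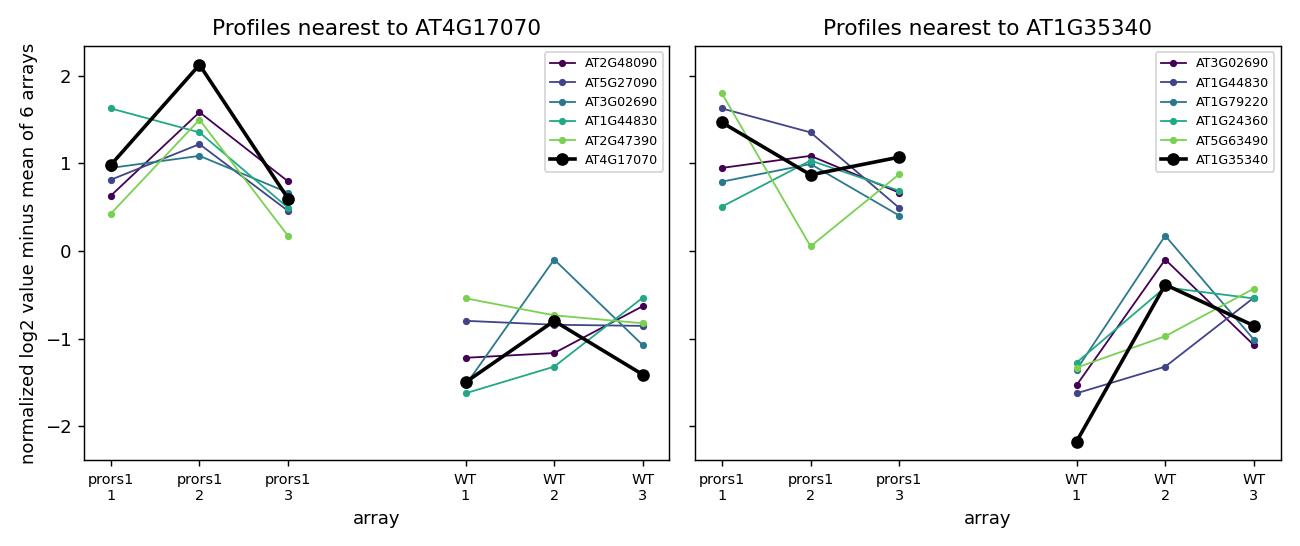
Normalized log2 value minus the mean of the 6 arrays for AT4G17070 and AT1G35340 (thick black) and for the 5 genes nearest to each (thin lines), on prors1 arrays 1 to 3 and WT arrays 1 to 3. AT4G17070 peaks on prors1 array 2 and AT1G35340 dips lowest on WT array 1, where its normalized log2 level was -5.87.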

How the data were processed

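The authors deposited linear intensities, with a column for each of the 12 samples. Not given in the sources used here is how they scanned, background-corrected and scaled the arrays. The genes, lists and tests were chosen with earlier results of these data known. Values of 0 were treated as missing, the rest log2 transformed, quantile normalized (limma 3.58.1 in R 4.3.3) and then averaged within arrays. Columns taken as 1 array correlated over probes at 0.951 to 0.961 in prors1 and 0.902 to 0.915 in WT. Other columns of a group correlated at 0.881 to 0.895 in prors1 and 0.840 to 0.878 in WT. Probes with at least 4 of 6 columns above 0 in each group, 2908 of 3439, were fitted with lmFit and eBayes with group as the only term, two-sided, with Benjamini-Hochberg adjustment and a threshold of 0.05. The procedure was tested on simulated data. Intensities are means over arrays with 0 included. Probe names come from the platform annotation of 2016 and the TAIR10.1 gene table, in which 690 of the 692 probes with 1 gene matched. Lists were written as loci from general knowledge and joined with genes whose names in that table hold family terms. Named are both genes, every tested list gene and the 5 nearest profiles. Alternatives covered scaling, an added constant, filters, a pseudocount, columns as samples, replicate numbers as blocks, probe order and left-out columns and arrays.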

Additional observations from a re-analysis of the deposited data

Results flagged for a closer look

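Over the 6 columns of a group, the highest or lowest value was checked for a gap to its neighbour that is wide for the range of the group. Of 18 such groups, those of both genes and of the list genes above 0, 1 stood out. Chance gives about 1 in 20 for independent values. That rate need not hold here, since the 6 columns were taken as pairs of readings of 3 arrays. TPP2 (AT4G20850) read 0.189 in prors1 column 6, and the next highest prors1 column read 0.112.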

How the results depend on the processing

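The constant on lower quartiles and the one that keeps 0 as a value were added after seeing the data, and the remaining alternatives were planned. The log2 fold of AT4G17070 moved by less than the SD between arrays in all settings run except median scaling (1.51). That of AT1G35340 did so except without normalization (3.50), with the pseudocount (1.07), with the constant on medians (-0.072, or -0.048 with 0 kept as a value) and with the constant on lower quartiles (0.41), besides left-out columns. It could not be fitted with all 12 columns above 0 or without dim probes, and no second probe existed to try. With 1 column or array left out the folds ran from 2.06 to 2.89 for AT4G17070 and from 1.55 to 2.95 for AT1G35340. Arrays with the same number deviated together at correlations of 0.184, 0.0801 and 0.231, against -0.172 to -0.0251 for arrays with different numbers. Columns with the same number did so at 0.0832 to 0.261, against -0.153 to 0.103 for columns with different numbers. The main fit did not pair by number, and the labels do not state what a shared number means. With the array number as a replicate block the SE was 0.25 for AT4G17070 and 0.46 for AT1G35340, and with the column number as a block 0.18 and 0.68, at folds of 2.47 for AT4G17070 and of 2.27 and 2.34 for AT1G35340.

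The count of changed probes, 764 (372 higher, 392 lower), was 840 with the array block. It moved to 1332 without normalization (1250 and 82), 1443 with 6 columns as samples and 1532 with the column number as a block, and with the constant on medians it was 905 (290 and 615). It ran from 394 to 750 with 1 column or array left out, and was 458 and 394 without prors1 arrays 1 and 2 and 486 and 450 without WT arrays 1 and 3. Without normalization 1 isomerase, 1 protease and 2 chaperone genes were called, and with either constant on medians 1 protease gene. Chaperone calls were 2 with all 12 columns above 0, without dim probes, with 6 columns as samples and with either block, 0 without the filter and with the constant on lower quartiles, and 0 to 1 with a column or array left out. AT1G26230, not called as reported, passed by limma with all 12 columns above 0 (adjusted p = 0.0419), without dim probes (0.0421), with 6 columns as samples (0.0114), with the array block (0.0317) and the column block (0.0135), after the running median was subtracted (0.0282) and without WT array 2 (0.0173).

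Signs turned as follows, and the cause was not tested. Without normalization the log2 folds were 0.47 for AT1G74070, 0.62 for AT5G35100, 0.22 for AT1G12520 and 0.87 for AT5G56500. With the constant on medians they were -0.29 for AT5G13410, 0.025 for AT5G35100, -1.06 for AT4G20850 (-1.03 with 0 kept) and 0.034 for AT5G56500. With the constant on lower quartiles they were 0.089 for AT1G74070, 0.21 for AT5G35100, -0.70 for AT4G20850 and 0.26 for AT5G56500. AT5G56500 also turned under cyclic loess (0.0024) and, with AT5G35100 (0.0041), once a running median over neighbouring probe numbers was subtracted (0.24). Leaving out single columns or arrays gave folds of -0.53 to 0.013 for AT1G74070, 0.059 (without WT array 1) to 0.37 for AT5G13410, 0.025 (without WT array 2) to 0.98 for AT4G20850, -0.35 to 0.17 for AT5G35100 and -0.20 to 0.11 for AT5G56500.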

Other observations

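For AT4G17070 the deposited intensity in prors1 was 4.45, 5.04, 9.59, 7.12, 4.92 and 3.02 times that in WT in columns with the same number, 1 to 6. Single columns of the groups overlapped. For AT1G35340 the same ratios were 8.41, 133, 2.60, 8.75 and 9.13 in columns 1 to 5, with WT column 6 listed at 0. The ratio of 133 rests on a WT reading of 0.00217. None of these ratios is normalized. The prors1 columns were brighter in general, with medians above 0 of 0.407 to 0.520, against 0.224 to 0.289 in WT columns. Both genes were chosen from these data, so nothing is read from the ratios. The labels do not tie columns with the same number to shared material.

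Probes listed next to those of the 2 genes gave mixed folds. Within 5 probe numbers of AT4G17070 lay 5 tested probes, of which 2 were higher in prors1 by limma (log2 folds 1.46 and 1.24). Within 5 numbers of AT1G35340 lay 2 tested probes, with log2 folds of -0.65 and -0.16, and neither passed the test. The 69 tested probes within 50 numbers of AT4G17070 had a median log2 fold of -0.26, with 10 higher and 14 lower. The 56 within 50 numbers of AT1G35340 had a median of -0.01, with 8 higher and 7 lower. Over all tested probes 12.8% were higher and 13.5% lower. Of the 5 protein-coding genes on either side of each gene in the genome, by the order of the gene table, 0 had a probe of their own.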
